A study of Homo sapiens with 12 samples.

Results

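The genes described here are the neuropilins NRP1 and NRP2, the plexins PLXNA1, PLXNA2 and PLXNA3, the semaphorins SEMA3A, SEMA3C and SEMA3F, and the growth factors VEGFA and VEGFB. They are 10 of the 21508 genes listed in at least 1 of 12 RNA-seq libraries, picked by name because NRP1 was higher with the GSK3 inhibitor 1-AKP in the same libraries, so values under 1-AKP are given for them as descriptions with no p-value. The cells were EndoC-βH1, a human line derived from fetal pancreas that makes insulin, and poly(A) RNA was sequenced. The 4 groups held 3 libraries each: TUNAR siRNAs with 1-AKP, negative siRNA with 1-AKP, TUNAR siRNAs with DMSO, and negative siRNA with DMSO. TUNAR is annotated as a long noncoding RNA, and 1-AKP was given at 5 µM for 24 hours to cells transfected with siRNA beforehand, with DMSO as its vehicle. All groups share 1 cell line and the transfection, replicates 1 and 2 of each group were at passage 74, and replicate 3 was at passage 75.

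Neuropilins are cell-surface co-receptors that bind class 3 semaphorins and forms of VEGF. Plexins of the A family form the signalling chain for secreted class 3 semaphorins, which steer growing axons and vessels, while VEGF bound to neuropilin is presented to VEGF receptor kinases. In pancreatic islets, VEGFA made by beta cells maintains the dense capillary network, and the receptor kinases are found mainly on endothelial cells.

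Libraries held 15653786 to 15986834 expected counts each, which left 15990 genes above a low-count filter. TUNAR averaged 10.3 ± 3.32 CPM (counts scaled to library size; SD, n = 3) with TUNAR siRNAs and 29.9 ± 1.69 CPM with negative siRNA in 1-AKP, and 6.37 ± 2.24 CPM with TUNAR siRNAs and 17.3 ± 2.76 CPM with negative siRNA in DMSO. All 14 beta-cell markers passed the filter, with INS at 9207 to 12851 CPM over the libraries. Of 10 endothelial markers, ERG was listed in no library, CDH5, VWF, TEK, TIE1 and CLDN5 never exceeded 0.127 CPM, and the summed list ran from 131 to 140 CPM with TUNAR siRNAs and 1-AKP, 137 to 156 CPM with negative siRNA and 1-AKP, 135 to 142 CPM with TUNAR siRNAs and DMSO, and 146 to 147 CPM with negative siRNA and DMSO. EGFL7 alone gave 121 to 147 CPM of that sum. ESAM ran from 4.70 to 7.27 CPM, PECAM1 from 2.47 to 3.80 CPM and EMCN from 0.125 to 0.871 CPM, and 4 of the 10 endothelial markers passed the filter. With 1-AKP, 2 of the 14 beta-cell markers fell and 0 rose with TUNAR siRNAs and 4 fell and 0 rose with negative siRNA in edgeR, where 3.79% and 3.76% of all genes fell. NKX2-2 and NKX6-1 fell with either siRNA (log2 fold changes -0.87 and -0.48 with TUNAR siRNAs and -0.80 and -0.52 with negative siRNA), and IAPP and UCN3 with negative siRNA (-0.80 and -0.62). G6PC2, at 6.43 to 223 CPM over the libraries, had the largest value of the list at 2.20 with TUNAR siRNAs and 2.43 with negative siRNA and was not called (adjusted p = 0.213 and 0.176), and INS stood at 0.02 and 0.03. With the replicate number as a block 8 of the 14 fell and 1 rose with either siRNA. In that fit 12.9% of all genes fell and 14.2% rose with TUNAR siRNAs, and 12.8% fell and 14% rose with negative siRNA. The part of these markers in the values given for 1-AKP was not tested. Replicate 1 stood apart from replicates 2 and 3 in every group on the first principal component (23.7% of the variance).

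VEGFA had the highest RNA level of the 10 genes per unit of length, and the neuropilins were near the bottom. Levels of different genes are set side by side in FPKM, fragments per kilobase scaled to library size, as mean ± SD over the 12 libraries. VEGFA stood at 98.9 ± 8.81 FPKM, above 97.3% of all listed genes, and VEGFB at 25.1 ± 2.17 FPKM. The A plexins followed, with PLXNA1 at 17.9 ± 2.11, PLXNA3 at 14.3 ± 0.754 and PLXNA2 at 11.9 ± 0.855 FPKM. These 3 levels lay close together: over the 12 libraries the range of PLXNA1 overlapped that of PLXNA3, and the range of PLXNA3 overlapped that of PLXNA2. SEMA3A, the prototype collapsing semaphorin, was the most abundant semaphorin of the set at 6.92 ± 0.537 FPKM. NRP1 stood at 1.08 ± 0.570, SEMA3F at 0.662 ± 0.0931 and SEMA3C at 0.453 ± 0.177 FPKM, with NRP1 overlapping SEMA3F and SEMA3F overlapping SEMA3C. NRP2 was last, from 0 to 0.19 FPKM, apart from SEMA3C.

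**Figure D1:**
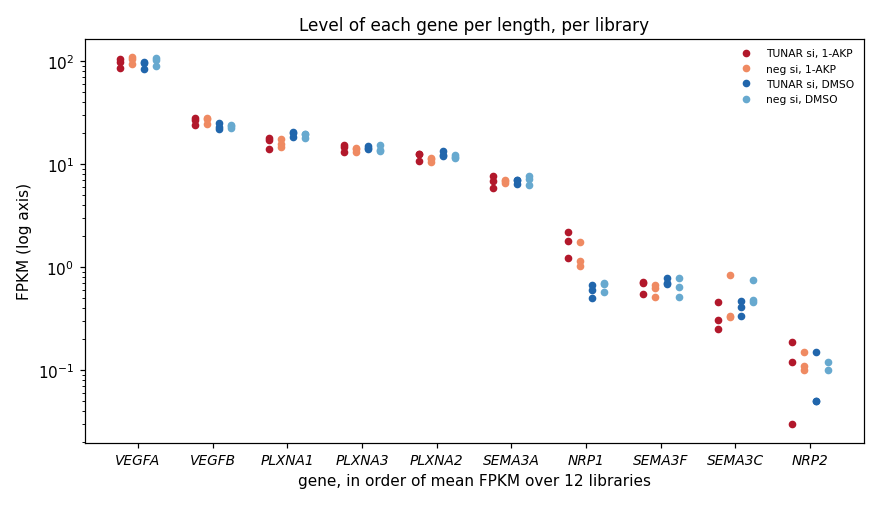
Deposited FPKM (log axis) of the 10 genes in each of 12 libraries, in order of mean FPKM and coloured by group; the library in which NRP2 was not listed is left out of the log axis. VEGFA (84.2 to 110 FPKM) lies above all others, and the 1-AKP libraries of NRP1, at 1.04 to 2.20 FPKM, all lie above its DMSO libraries, at 0.51 to 0.70 FPKM.

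NRP1, the neuropilin that binds SEMA3A and VEGFA, was higher in every 1-AKP library than in every DMSO library. With TUNAR siRNAs and 1-AKP it stood at 8.43, 4.94 and 6.47 CPM in replicates 1, 2 and 3, and with negative siRNA and 1-AKP at 7.27, 3.91 and 4.77 CPM. With TUNAR siRNAs and DMSO it stood at 2.89, 1.82 and 2.26 CPM, and with negative siRNA and DMSO at 2.50, 1.87 and 2.25 CPM. The treatments did not overlap, and within each of the 4 groups replicate 1 was highest and replicate 2 lowest. The means were 6.61 ± 1.75 CPM in 1-AKP against 2.32 ± 0.541 CPM in DMSO with TUNAR siRNAs, a log2 fold change of 1.51 (SE 0.267) or 2.85-fold. With negative siRNA they were 5.32 ± 1.75 CPM in 1-AKP against 2.21 ± 0.318 CPM in DMSO, a log2 fold change of 1.27 (SE 0.273) or 2.41-fold.

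The ratio of NRP1 in 1-AKP over DMSO was similar across replicate numbers with TUNAR siRNAs, at 2.92, 2.72 and 2.87 in CPM. With negative siRNA it was 2.91 in replicate 1, 2.09 in replicate 2 and 2.12 in replicate 3. These values rest on 62 to 131 expected counts per library in 1-AKP and 29 to 46 in DMSO. NRP1 has 6 annotated transcripts in the files, and its deposited length ran from 2733 to 4345 bases between libraries, so its FPKM moves with that length as well as with the count. In FPKM the ratios were 3.28, 2.43 and 2.97 with TUNAR siRNAs and 2.54, 1.51 and 1.98 with negative siRNA. In bulk RNA, a change in the number of cells that make a transcript and a change in transcript per cell cannot be told apart, and without strand information neither can reads from an antisense gene.

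NRP2, the partner that prefers SEMA3F and SEMA3C, had too few counts to be tested. It had 3, 10 and 17 expected counts with TUNAR siRNAs and 1-AKP and 8, 6 and 10 with negative siRNA and 1-AKP. With TUNAR siRNAs and DMSO it had 4, 5 and 7, and with negative siRNA and DMSO 9, 0 and 6. The 1-AKP and DMSO libraries overlap with either siRNA. The 0 is a library in which NRP2 was not listed, and a count of 0 allows up to 3 counts by counting error alone.

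**Figure D2:**
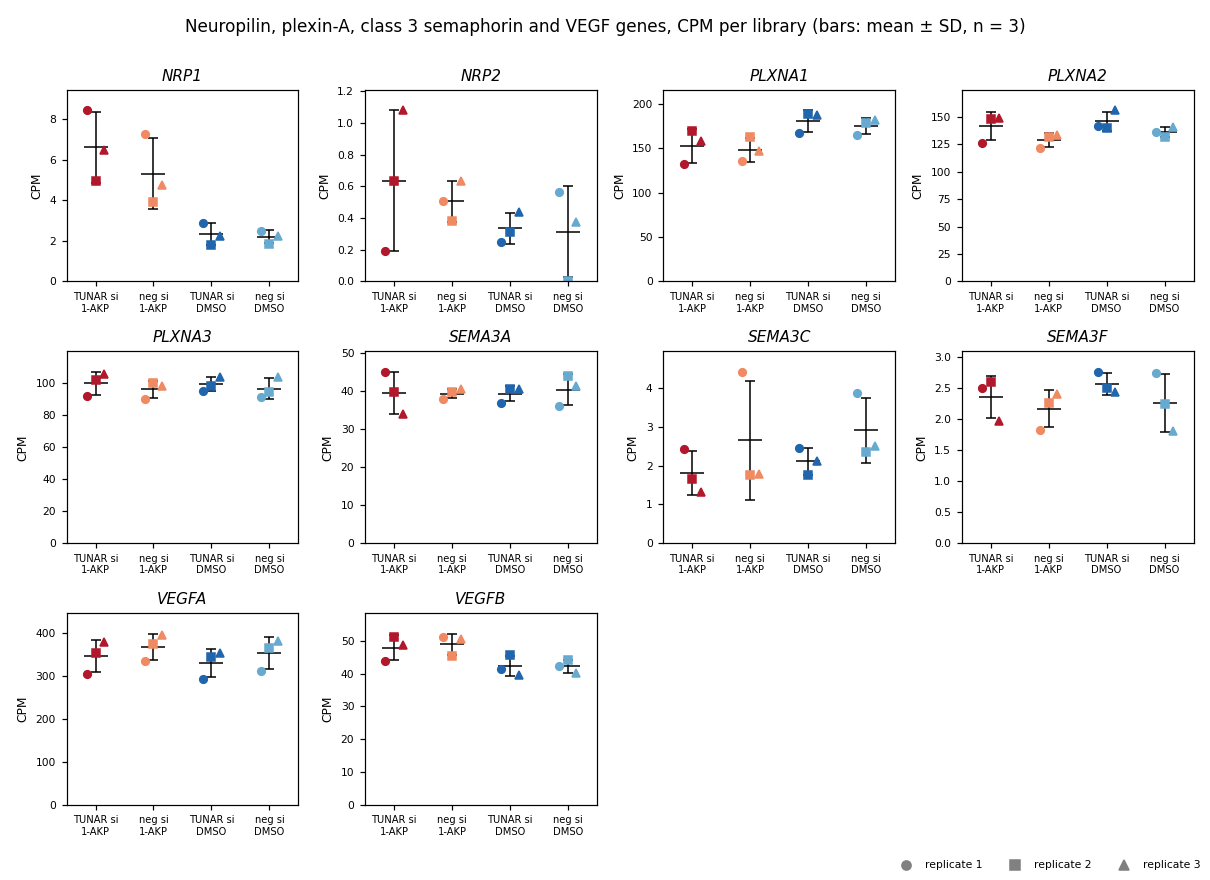
CPM of each of the 10 genes in the 12 libraries, with circles, squares and triangles for replicates 1, 2 and 3 and bars for mean ± SD (n = 3); every y axis starts at 0. NRP1 separates by treatment, PLXNA1 is lowest in replicate 1 and VEGFA is lowest in replicate 1 and highest in replicate 3 of every group.

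PLXNA1, a signalling receptor for class 3 semaphorins, had lower values in 1-AKP. With TUNAR siRNAs it stood at 132, 169 and 158 CPM in 1-AKP, against 167, 188 and 187 CPM in DMSO. With negative siRNA it stood at 136, 162 and 147 CPM in 1-AKP, against 165, 178 and 182 CPM in DMSO. The groups did not overlap with negative siRNA, and with TUNAR siRNAs replicate 2 in 1-AKP exceeded replicate 1 in DMSO. The log2 fold change was -0.24 (SE 0.0911) with either siRNA, and replicate 1 was the lowest library in each of the 4 groups.

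The other A plexins overlapped between treatments, and PLXNA1 made up less of the 3-gene sum in 1-AKP. PLXNA2 ran from 122 to 156 CPM and PLXNA3 from 90.1 to 105 CPM over the 12 libraries, with 1-AKP log2 fold changes of -0.05 and 0.01 with TUNAR siRNAs (SE 0.0681 and 0.0678) and -0.08 and 0.00 with negative siRNA (SE 0.0683 and 0.0679). As a share of the summed FPKM of the 3 plexins, PLXNA1 was 38.3% ± 1.48 in 1-AKP and 42.1% ± 1.40 in DMSO with TUNAR siRNAs, and 39.0% ± 1.27 in 1-AKP and 42.4% ± 0.969 in DMSO with negative siRNA (SD, n = 3). The expected counts of PLXNA1, PLXNA2 and PLXNA3 were fractional in all 12 libraries, as where reads are divided between similar genes, so the split among them is uncertain, while the counts of the other 7 genes were whole within 0.005.

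GSK3 restrains beta-catenin, which acts with TCF and LEF factors at their core letters, so the promoters of these genes and of the other plexins were read on both strands for CTTTG followed by AA, AT, TA or TT. The RefSeq windows run from 250 bases before to 50 bases after the start in GRCh38.p14 and were found for 7 of the 10 genes (not NRP1, SEMA3A or VEGFA). Some genes have several such windows, and a match was held by 3 of the 10 windows of these genes, 1 each in PLXNA1, PLXNA2 and SEMA3F, and by 2 of the 8 windows of the other plexins, in PLXNB1 and PLXNC1, against 13.8% of all 35116 windows. All 6 other plexins had a window, and PLXND1 and PLXNA4, described further on with PLXNC1, held no match. The match of PLXNB1, at -95 from the start, is not printed. The matches of the 3 genes and of PLXNC1 are shown with the letters found in capitals and 10 bases on each side, on the strand of the gene. They lie at chr3:126982924-126982950 (plus strand) for PLXNA1, chr1:208244516-208244542 (minus) for PLXNA2, chr3:50158961-50158987 (plus) for SEMA3F and chr12:94148378-94148404 (plus) for PLXNC1.
PLXNA1: ccgtatcgccCTTTGAAgacgcgcggt
PLXNA2: cctgcttctcCTTTGTTgacagcttgc
SEMA3F: gtctctcctgCTTTGATtttagtacaa
PLXNC1: ggcggctgagCTTTGTTatgaatagat
The letters are a description of sequence and no evidence of binding, and their bearing on the RNA levels was not tested. Of 9 Wnt target genes 7 were tested, with a median 1-AKP log2 fold change of -0.07 with TUNAR siRNAs and -0.10 with negative siRNA. Without a block edgeR called 0 of the 7 with either siRNA, where 7.51% and 7.3% of all genes were called. With the replicate number as a block 1 fell with negative siRNA, where 12.8% of all genes fell.

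Among the ligands, SEMA3A had overlapping values in all groups and SEMA3C and SEMA3F were scarce. SEMA3A stood at 44.9, 39.7 and 33.8 CPM with TUNAR siRNAs and 1-AKP, 37.9, 39.6 and 40.4 CPM with negative siRNA and 1-AKP, 36.9, 40.4 and 40.4 CPM with TUNAR siRNAs and DMSO, and 36.0, 43.8 and 41.3 CPM with negative siRNA and DMSO. SEMA3F, a repellent ligand read through NRP2, ran from 1.82 to 2.77 CPM with overlapping groups. SEMA3C, which binds both neuropilins, stood at 2.45, 1.65 and 1.33 CPM with TUNAR siRNAs and 1-AKP, 4.43, 1.77 and 1.78 CPM with negative siRNA and 1-AKP, 2.45, 1.75 and 2.13 CPM with TUNAR siRNAs and DMSO, and 3.87, 2.37 and 2.50 CPM with negative siRNA and DMSO. Replicate 1 was the highest SEMA3C library of every group. The 1-AKP log2 fold changes of SEMA3A, SEMA3C and SEMA3F were 0.01, -0.22 and -0.12 with TUNAR siRNAs (SE 0.0975, 0.383 and 0.195) and -0.04, -0.13 and -0.06 with negative siRNA (SE 0.0973, 0.352 and 0.199).

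VEGFB, a VEGF receptor 1 ligand, was somewhat higher in 1-AKP and VEGFA varied with the replicate number. VEGFB stood at 43.7, 51.2 and 48.8 CPM in 1-AKP against 41.5, 45.7 and 39.7 CPM in DMSO with TUNAR siRNAs. With negative siRNA it stood at 51.1, 45.2 and 50.4 CPM in 1-AKP against 42.4, 44.0 and 40.1 CPM in DMSO. The 1-AKP and DMSO libraries were apart with negative siRNA and overlapped with TUNAR siRNAs. The log2 fold changes of VEGFB were 0.18 (SE 0.0776) with TUNAR siRNAs and 0.21 (SE 0.0775) with negative siRNA.

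VEGFA, the main angiogenic factor of beta cells, stood at 305, 355 and 379 CPM with TUNAR siRNAs and 1-AKP and at 335, 375 and 395 CPM with negative siRNA and 1-AKP. It stood at 293, 344 and 353 CPM with TUNAR siRNAs and DMSO and at 312, 365 and 383 CPM with negative siRNA and DMSO. In each group replicate 1 was lowest and replicate 3 highest, and this spread was wider than the difference between any groups. The 1-AKP log2 fold change of VEGFA was 0.07 (SE 0.103) with TUNAR siRNAs and 0.06 (SE 0.102) with negative siRNA. The ratio of VEGFA to VEGFB in FPKM ran from 3.52 to 3.94 in 1-AKP and from 3.63 to 4.51 in DMSO with TUNAR siRNAs, and from 3.37 to 4.25 in 1-AKP and from 3.75 to 4.87 in DMSO with negative siRNA, with overlap in both.

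Of the 9 genes tested, 1 was called in each 1-AKP comparison, NRP1, by edgeR's quasi-likelihood test with Benjamini-Hochberg adjustment at 0.05. Over all 15990 genes 7.51% were called with TUNAR siRNAs and 7.3% with negative siRNA. Since NRP1 was picked on these comparisons, its calls and its leave-one-out range below are descriptions, and nothing is read from them. The median size of the log2 fold change over the 9 genes was 0.12 with TUNAR siRNAs and 0.08 with negative siRNA, against 0.12 over all genes in both. With negative siRNA the NRP1 call was lost when library 2 or library 3 of its DMSO group was dropped, and with either siRNA when number 2 or number 3 was dropped from every group. With the replicate number as a block, NRP1 and VEGFB were called higher and PLXNA1 lower with either siRNA, where 14.2% and 12.9% of all genes were called higher and lower with TUNAR siRNAs and 14% and 12.8% with negative siRNA. The log2 fold change of NRP1 stayed between 1.30 and 1.70 with TUNAR siRNAs and between 0.97 and 1.45 with negative siRNA when any 1 library or replicate number was left out.

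**Figure D3:**
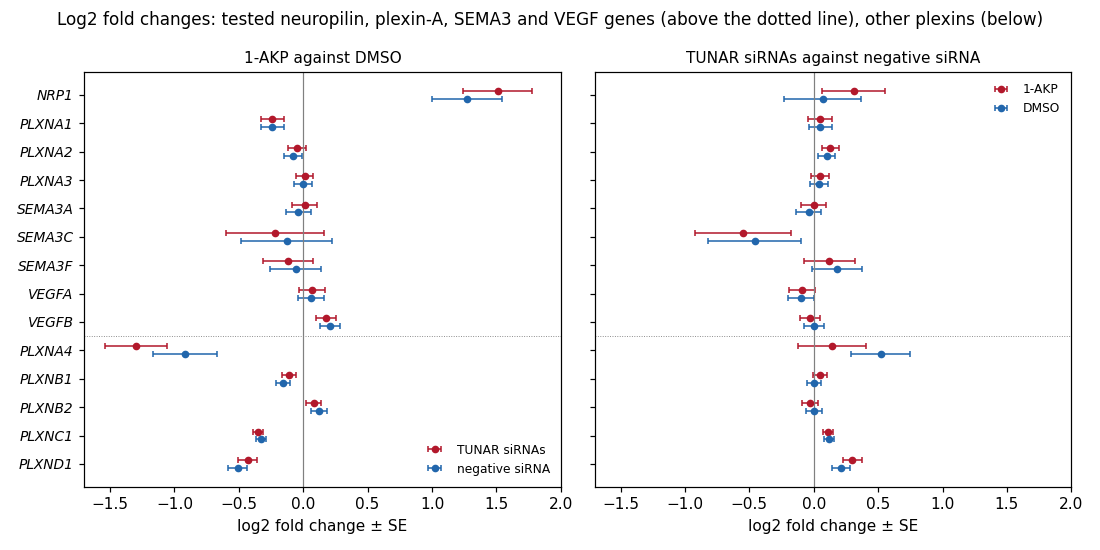
Log2 fold changes ± SE from the fit of 12 libraries for the 9 tested genes (above the dotted line) and 5 other plexins (below); the left panel gives 1-AKP against DMSO by siRNA and the right panel TUNAR siRNAs against negative siRNA by treatment. NRP1 lies at 1.51 and 1.27 on the left, PLXNA4 at -1.30 and -0.92, and most values on the right are within 0.3 of 0.

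TUNAR siRNAs were compared with negative siRNA to ask which of these genes depend on TUNAR, a comparison that did not enter the choice of genes. None of the 9 tested genes was called in either treatment (0 of 9, and 0 of 9 with an unadjusted p under 0.05, in edgeR's quasi-likelihood test; DESeq2 and limma also called 0), where 0% of all genes were called in 1-AKP and 0.0125% in DMSO. Without a block edgeR did not call TUNAR itself either, at log2 fold changes of -1.53 in 1-AKP and -1.44 in DMSO. With the replicate number as a block it was called lower in both (-1.55 and -1.45). The 0 called without a block therefore does not show that these genes are independent of TUNAR. NRP1 differed by 0.31 in 1-AKP (log2 fold change, SE 0.244) and by 0.07 in DMSO (SE 0.299), with overlapping groups. SEMA3C differed by -0.55 in 1-AKP (SE 0.373) and by -0.46 in DMSO (SE 0.361), and was lower with TUNAR siRNAs in every same-numbered pair. When replicate 1 was dropped from negative siRNA with 1-AKP, the SEMA3C value in 1-AKP became 0.03. PLXNA2 differed by 0.13 in 1-AKP and 0.10 in DMSO (SE 0.0683 and 0.0681), and was higher with TUNAR siRNAs in every pair. The median size of the change over the 9 genes was 0.09 in 1-AKP and 0.07 in DMSO, and 0.07 over all genes in both.

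Same-numbered libraries moved together in the siRNA comparisons, and with the number as a block VEGFA was the 1 gene of the 9 called, in DMSO. It was lower with TUNAR siRNAs in each of the 3 pairs, by -0.10 (SE 0.0282, adjusted p = 0.0487, edgeR's quasi-likelihood test). In 1-AKP the same fit gave -0.09 (SE 0.0281, adjusted p = 0.0735), and 0 of the 9 genes were called. With the block 2.77% of all genes were called in 1-AKP and 3.05% in DMSO. The difference of the siRNA effects, 1-AKP minus DMSO, was 0.24 for NRP1 (SE 0.386), and 0 of the 9 genes and 0% of all genes were called for it, with 0 of the 9 at an unadjusted p under 0.05 in edgeR and 0 called by DESeq2 or limma.

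Beyond the 10 genes, 101 genes of the pathway were followed in 10 lists, of which 83 were tested. In 1-AKP 1 of them rose and 7 fell with TUNAR siRNAs, and 2 rose and 7 fell with negative siRNA, where 3.72% and 3.54% of all genes rose and 3.79% and 3.76% fell. Their median log2 fold change was -0.06 with TUNAR siRNAs and -0.07 with negative siRNA, against 0.00 over all genes. The counts depend on the replicates: dropping number 1 from every group gave 27 called genes with TUNAR siRNAs and 19 with negative siRNA, where 17.4% and 16% of all genes were called. Dropping number 2 gave 0 and 0, where 0.15% and 0.113% of all genes were called, and dropping number 3 gave 2 and 0, where 0.394% and 0.344% were.

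Plexins outside the A1 to A3 set were 3 of the 7 genes that fell with either siRNA. Of the 6 listed, 5 were tested, with a median log2 fold change of -0.35 with TUNAR siRNAs and -0.33 with negative siRNA against 0.00 over all genes. PLXNC1, PLXND1 and PLXNA4 fell with 1-AKP with either siRNA, and PLXNB1 and PLXNB2 were not called. PLXNB2 had higher means in 1-AKP than in DMSO, at 391 ± 35.7 against 369 ± 18.3 CPM with TUNAR siRNAs and 399 ± 9.70 against 368 ± 12.1 CPM with negative siRNA. With the replicate number as a block 4 of the 5 fell and 0 rose with TUNAR siRNAs, where 12.9% and 14.2% of all genes did. With negative siRNA 4 fell and 1 rose, where 12.8% and 14% did. PLXNC1, the receptor of SEMA7A, averaged 268 ± 4.18 CPM in 1-AKP and 341 ± 5.45 CPM in DMSO with TUNAR siRNAs (log2 fold change -0.35, SE 0.0377, adjusted p = 0.000231, edgeR). With negative siRNA it averaged 248 ± 5.49 CPM in 1-AKP and 313 ± 8.94 CPM in DMSO (-0.33, SE 0.0378, adjusted p = 0.000322), and the groups did not overlap with either siRNA.

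PLXND1, a receptor of SEMA3E that patterns vessels, averaged 38.5 ± 4.29 CPM in 1-AKP and 51.9 ± 1.82 CPM in DMSO with TUNAR siRNAs (-0.43, SE 0.0728, adjusted p = 0.00433, edgeR). With negative siRNA it averaged 31.4 ± 0.888 CPM in 1-AKP and 44.8 ± 0.877 CPM in DMSO (-0.51, SE 0.0741, adjusted p = 0.00182). PLXNA4, the fourth A plexin, stood at 5.02, 6.08 and 4.31 CPM in 1-AKP and 16.5, 12.2 and 9.34 CPM in DMSO with TUNAR siRNAs (-1.30, SE 0.242, adjusted p = 0.00787). With negative siRNA PLXNA4 stood at 5.37, 5.55 and 3.05 CPM in 1-AKP and 9.93, 9.09 and 7.45 CPM in DMSO (-0.92, SE 0.250, adjusted p = 0.0459). Every 1-AKP library of PLXND1 and PLXNA4 lay below every DMSO library with the same siRNA. No call of PLXNC1 or PLXND1 was lost without any 1 library, whereas the PLXNA4 call with negative siRNA was lost for 10 of the 12 single libraries, at adjusted p from 0.0555 to 0.152. When number 2 was dropped from every group, PLXNC1, PLXND1 and PLXNA4 lost their calls with either siRNA. When number 3 was dropped, PLXND1 lost its call with either siRNA and PLXNC1 and PLXNA4 lost theirs with negative siRNA, and PLXNA4 also lost that call without number 1 (adjusted p = 0.05002). The expected counts of PLXNA4, like those of PLXNA1 to PLXNA3, were fractional in nearly all libraries, so reads may be divided between it and similar genes and its level is uncertain to that extent.

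**Figure D4:**
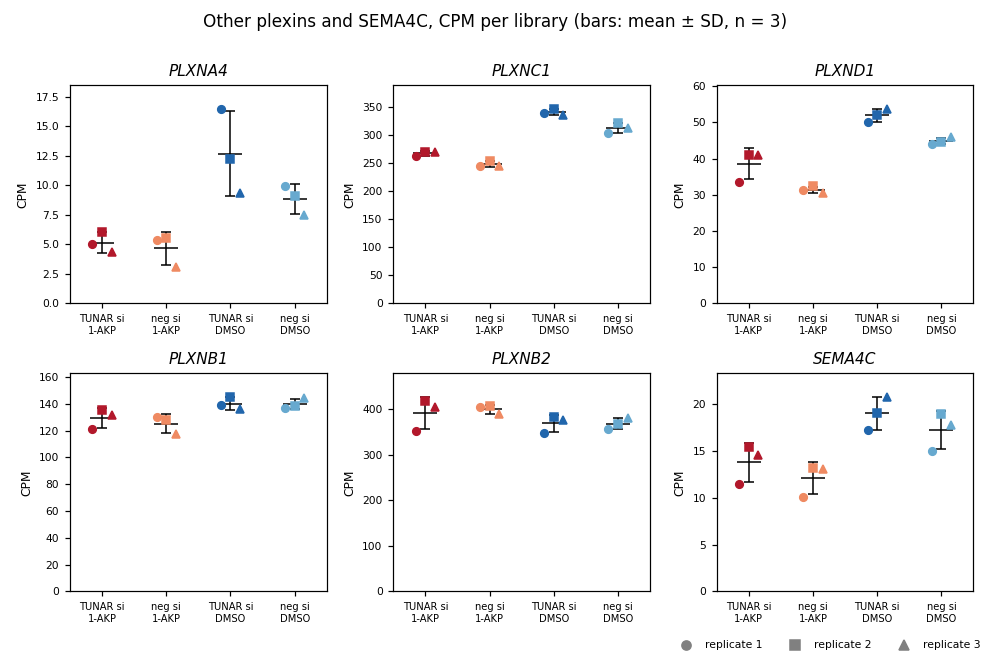
CPM per library of 5 plexins outside the A1 to A3 set and of SEMA4C, with symbols by replicate and bars for mean ± SD (n = 3). PLXNA4, PLXNC1 and PLXND1 are lower in 1-AKP with either siRNA; within a treatment PLXNC1 and PLXND1 are higher with TUNAR siRNAs.

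The remaining calls were spread over the lists. FYN, a Src-family kinase that acts downstream of plexin A receptors, changed by -0.43 with TUNAR siRNAs (adjusted p = 0.00205, edgeR) and -0.41 with negative siRNA (adjusted p = 0.00312), and TIAM1, a Rac exchange factor, by -0.23 (adjusted p = 0.014) and -0.24 (adjusted p = 0.0125). RGMA, a repulsive guidance molecule, changed by -0.66 with TUNAR siRNAs (adjusted p = 0.0407) and -0.70 with negative siRNA (adjusted p = 0.0483). With TUNAR siRNAs the actin-severing cofilin CFL1 rose by 0.12 (adjusted p = 0.0489) and the focal adhesion adaptor PXN changed by -0.25 (adjusted p = 0.0372). They stood at 0.11 and -0.17 with negative siRNA (adjusted p = 0.0587 and 0.14, edgeR). With negative siRNA SEMA4C, a ligand of plexin B2, changed by -0.51 (adjusted p = 0.0442), the neural adhesion molecule NRCAM rose by 0.19 (adjusted p = 0.0393) and the peptide ADM, which hypoxia induces, rose by 0.60 (adjusted p = 0.0308). With TUNAR siRNAs these 3 stood at -0.46, 0.16 and 0.02 (adjusted p = 0.06, 0.0702 and 0.964, edgeR). With the replicate number as a block edgeR called CFL1 and NRCAM higher and PXN and SEMA4C lower with either siRNA. ADM was called higher with negative siRNA in that fit (adjusted p = 0.00936) and not with TUNAR siRNAs (adjusted p = 0.949, edgeR). The blocked fit called 27.1% of all genes with TUNAR siRNAs and 26.8% with negative siRNA. Without the block, the calls of TIAM1, RGMA, CFL1, PXN, SEMA4C, NRCAM and ADM were each lost without at least 1 single library. Whether a gene called with 1 siRNA differed from its effect with the other was tested in the difference of effects. There edgeR, DESeq2 and limma called 0 of the 83 genes (0% of all genes in edgeR), and 1 had an unadjusted p under 0.05 in edgeR.

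The VEGF receptors, named here after their values were seen, were scarce. FLT1, VEGF receptor 1, averaged 4.27 ± 0.370 CPM with TUNAR siRNAs and 1-AKP, 3.92 ± 0.185 CPM with negative siRNA and 1-AKP, 4.03 ± 0.753 CPM with TUNAR siRNAs and DMSO, and 3.77 ± 0.892 CPM with negative siRNA and DMSO. KDR, VEGF receptor 2, did not pass the filter, with 7.85 expected counts summed over 3 libraries with TUNAR siRNAs and 1-AKP, 7.20 with negative siRNA and 1-AKP, 10.4 with TUNAR siRNAs and DMSO, and 13.7 with negative siRNA and DMSO. Of the 6 other VEGF ligands and receptors, 4 were tested and 0 were called in either 1-AKP comparison by edgeR without the block. In each, 1 had an unadjusted p under 0.05, where 3421 of all 15990 genes did with TUNAR siRNAs and 3345 with negative siRNA. PGF, a ligand of FLT1, stood at 54.2 ± 3.41 CPM in 1-AKP and 46.7 ± 3.19 CPM in DMSO with TUNAR siRNAs, and at 54.2 ± 3.84 CPM in 1-AKP and 48.1 ± 2.86 CPM in DMSO with negative siRNA. The log2 fold change of PGF was 0.21 with TUNAR siRNAs (adjusted p = 0.108, edgeR, and 0.00856 with the block) and 0.17 with negative siRNA (adjusted p = 0.201, and 0.0316 with the block). PGF was the 1 gene of the 4 that the blocked fit called, where that fit called 27.1% and 26.8% of all genes.

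With TUNAR siRNAs, 0 of the 83 pathway genes were called without the block in either treatment by edgeR, DESeq2 or limma. In edgeR 11 had an unadjusted p under 0.05 in 1-AKP and 10 in DMSO, where 743 and 776 of all 15990 genes did. With the block 6 rose and 1 fell in 1-AKP and 8 rose and 2 fell in DMSO, where 1.44% and 1.71% of all genes rose and 1.33% and 1.34% fell. PLXND1 rose by 0.29 in 1-AKP (SE 0.0594, adjusted p = 0.00268, edgeR with the block) and 0.21 in DMSO (SE 0.0536, adjusted p = 0.0183), and PLXNC1 by 0.11 (adjusted p = 0.0342) and 0.12 (adjusted p = 0.00831). For both plexins the siRNA groups did not overlap within a treatment, with TUNAR siRNAs above. PLXNA4 rose by 0.51 in DMSO (adjusted p = 0.00545) and stood at 0.15 in 1-AKP (adjusted p = 0.737). SEMA6A, a membrane ligand of A plexins, rose by 0.18 in 1-AKP (adjusted p = 0.0291) and stood at 0.16 in DMSO (adjusted p = 0.0526), and SEMA5A, a transmembrane semaphorin, rose by 0.24 in DMSO (adjusted p = 0.0138) and stood at 0.14 in 1-AKP (adjusted p = 0.272).

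The guidance receptors NEO1 and ROBO1 and the NEO1 ligand RGMA also rose in the blocked fit. RGMA rose by 0.66 in 1-AKP (adjusted p = 0.0419, edgeR) and 0.63 in DMSO (adjusted p = 0.0178), NEO1 by 0.22 (adjusted p = 0.000831) and 0.19 (adjusted p = 0.00359), and ROBO1 by 0.13 (adjusted p = 0.01) and 0.14 (adjusted p = 0.00385). CRKL, an adaptor protein from the list of VEGF receptor signalling, changed by -0.21 in 1-AKP (adjusted p = 0.000637) and -0.19 in DMSO (adjusted p = 0.00236). In DMSO the GTPase gene RHOA rose by 0.10 (adjusted p = 0.048) and the oxygen sensor EGLN1 changed by -0.16 (adjusted p = 0.0463). The siRNA and 1-AKP comparisons share libraries. The group with negative siRNA and 1-AKP is the reference of the siRNA comparison in 1-AKP and the tested group of 1-AKP with negative siRNA. The group with TUNAR siRNAs and DMSO is tested in the siRNA comparison in DMSO and is the reference of 1-AKP with TUNAR siRNAs. Opposite signs of PLXNC1, PLXND1, PLXNA4 and RGMA in these comparisons are therefore not independent.

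The genes whose pattern was most like that of NRP1 were TUBA1B, LIPG, LINC00673, POMP and NUDT9. Likeness was the Pearson correlation of log2 CPM over the 12 libraries, among the 13761 tested genes whose mean log2 CPM reached 1. It was 0.973 for TUBA1B, an alpha-tubulin whose near-identical relatives can share its reads, 0.968 for LIPG, endothelial lipase, 0.967 for LINC00673, a long noncoding RNA, 0.963 for POMP, a proteasome assembly factor, and 0.962 for NUDT9. The 12 points fall into 2 treatments and share replicate numbers, and within the 6 libraries of a treatment the correlation with NRP1 was 0.82 in 1-AKP and 0.98 in DMSO for TUBA1B, and from 0.89 to 0.94 in 1-AKP and from 0.52 to 0.72 in DMSO for the other 4. TUBA1B ranged from 2020 to 2408 CPM in 1-AKP and from 1672 to 1900 CPM in DMSO. Within a treatment, NRP1 ran against PLXNA1 (-0.76 in 1-AKP and -0.73 in DMSO) and VEGFA (-0.76 in 1-AKP and -0.70 in DMSO), both of which were lowest in replicate 1, where NRP1 was highest.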

How the data were processed

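The 12 libraries were analysed from the deposited gene tables. The authors deposited, per the file headers, an expected count per gene, which is not normalised, an FPKM value and a gene length in bases, for genes keyed by Entrez Gene ID; per the submitters' processing notes the tools were RSEM, Bowtie and BWA (versions not given) and the build GRCh37, also named hg19. Per the labels, libraries were prepared from oligo(dT)-selected RNA with random hexamers, and no strand marking is stated. Genes missing from a library were set to 0. Of 21508 identifiers, 21386 were matched to symbols through RefSeq. Expected counts were rounded, filtered with filterByExpr (minimum count 10, minimum total 15) and scaled by TMM, and 1 model with 4 group means was fitted in edgeR 4.0.16 under R 4.3.3 (glmQLFit, robust). All comparisons were contrasts in it, adjusted over 15990 genes with a threshold of 0.05. Nothing states that replicates were separate cultures, so p-values reflect the spread among these samples alone, which may be technical. The fit code was tested on simulated data.

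The members and lists were chosen with earlier results of these data known. The rule named all 10 genes, up to 4 called genes of each list and comparison with the lowest p, and the 5 genes most like NRP1, and was applied to the blocked siRNA fits as well. Same-numbered libraries deviated together in the siRNA comparisons (correlations 0.376, 0.178 and 0.217 in DMSO and 0.416, 0.162 and 0.286 in 1-AKP, all over 0.1), so the blocked values stand beside these results; beyond the passage, the meaning of a number is not labelled. In the 1-AKP comparisons the correlations were 0.407, 0.0634 and 0.159 with TUNAR siRNAs and 0.427, 0.0871 and 0.223 with negative siRNA, so that 2 of 3 exceeded 0.1 and the rule that all 3 do was not met. The coefficient of variation between libraries that edgeR estimated over all genes was 8.74% without the block and 2.86% with it. Standard errors without the block therefore include differences between replicate numbers. Libraries of a group differed by more than sampling noise (chi-square per degree of freedom 2.37 to 11.9). Alternatives were the block, DESeq2 1.42.0, RLE or no scaling factors, no filter, limma 3.58.1 on log2 FPKM with pseudocounts of 0.1 and 1, passage as a covariate, passage 74 alone, and each library or replicate number left out. Fold changes on log2 FPKM understate changes of low genes. Other marker lists held 7 other islet, 9 fibroblast, 7 blood and 6 neural genes, of which 3, 2, 4 and 3 were tested. These and 9 Wnt target genes, of which 7 were tested, gave 0 called genes with 1-AKP with either siRNA in edgeR without the block. At an unadjusted p under 0.05 there were 1 blood and 1 Wnt gene with negative siRNA and 0 with TUNAR siRNAs. Of all 15990 genes 3345 and 3421 had such a p. With the block 1 blood gene rose and 1 other islet and 1 neural gene fell with TUNAR siRNAs, where 14.2% of all genes rose and 12.9% fell. With negative siRNA 2 blood genes rose and 1 neural and 1 Wnt gene fell, where 14% of all genes rose and 12.8% fell.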

Additional observations from a re-analysis of the deposited data

How the results depend on the processing

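With the replicate number as a block the count of called genes among the 9 tested was 1 for the siRNAs in DMSO, 3 for 1-AKP with TUNAR siRNAs and 3 with negative siRNA, where 2 of 3 same-numbered pairs across treatments correlated above 0.1 and 1 did not. The 1-AKP count was 0 with negative siRNA by limma on log2(FPKM + 1), and 0 with either siRNA in passage 74 alone, where 2 libraries a group remain. Leaving out 1 library or replicate number gave 0 to 3 called genes for 1-AKP with TUNAR siRNAs, 0 to 2 with negative siRNA and 0 to 0 for both siRNA comparisons. Of the 83 pathway genes the block called 7 for the siRNAs in 1-AKP, 10 in DMSO, 39 for 1-AKP with TUNAR siRNAs and 37 with negative siRNA, where it called 2.77%, 3.05%, 27.1% and 26.8% of all genes. Passage as a covariate gave 15 and 15 for 1-AKP with TUNAR and negative siRNA (10.2% and 9.6% of all genes), passage 74 alone 2 and 0 (0.394% and 0.344%), and DESeq2 13 with TUNAR siRNAs (8.38%). Leave-one-out counts ran from 0 to 27 with TUNAR siRNAs, 0 to 19 with negative siRNA and 0 to 1 for the siRNAs in 1-AKP. Small effects changed sign. In DMSO, NRP1 was -0.12 and -0.05 by limma with pseudocounts 0.1 and 1, and VEGFB 0.00 by library size alone and by both limma fits; in 1-AKP SEMA3A was -0.01 and 0.00 by limma. Leaving out 1 library or number, the siRNA effect in DMSO ran from -0.12 to 0.22 for NRP1, -0.11 to 0.02 for SEMA3A and -0.06 to 0.05 for VEGFB, and in 1-AKP from -0.03 to 0.15 for PLXNA1, -0.12 to 0.13 for SEMA3A, -0.83 to 0.03 for SEMA3C, -0.03 to 0.32 for SEMA3F and -0.14 to 0.07 for VEGFB. The 1-AKP effect with TUNAR siRNAs ran from -0.11 to 0.03 for PLXNA2, -0.03 to 0.07 for PLXNA3, -0.14 to 0.13 for SEMA3A and -0.01 to 0.16 for VEGFA, and with negative siRNA from -0.05 to 0.06 for PLXNA3, -0.11 to 0.03 for SEMA3A, -0.71 to 0.13 for SEMA3C, -0.28 to 0.21 for SEMA3F and -0.02 to 0.13 for VEGFA. Apart from fewer samples or other units in these alternatives, the cause was not tested. NRP2 counts of 0 to 17 limit any statement on it.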
